A study of Homo sapiens with 12 samples.

Results

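The regions described here were called by an antibody to HOXA13 in 2 human liver-cancer cell lines, HepG2 and Huh7, and by the antibody to the HA tag in neither. To find them, the peak intervals of 4 deposited lists were pooled on chromosomes 1 to 22 and X and merged wherever they overlapped by at least 1 bp. A merged region was kept when it held an interval of both anti-HOXA13 lists and none of an anti-HA list. This left 211 of 140394 merged regions, built from 216 HepG2 and 211 Huh7 intervals. The untagged HepG2 and Huh7 cells received no treatment that the labels name. The tagged cells of each line were stably transfected with HA-tagged HOXA13. The promoter of the transgene, and whether the tagged cells were 1 clone, are not stated in those labels. Each population had 1 antibody library, 1 IgG library and 1 input library, so that no value here has a replicate and no test between conditions was made. The 4 IgG libraries were not analysed here.

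HOXA13 is a homeodomain transcription factor of the posterior end of the HOXA cluster. It is best known for patterning the distal limb and the hindgut and urogenital tract in the embryo, and raised expression has been described in hepatocellular carcinoma. Posterior HOX proteins bind short AT-rich sites in DNA. In ChIP-seq, DNA fixed to the protein is pulled down with an antibody and sequenced, and a peak caller lists the stretches with more fragments than the input DNA of the same cells predicts. The fold of an interval is the number of ChIP fragments stacked at its summit over the number expected from input, with 1 added to each. In Huh7 anti-HOXA13 the ChIP number is first multiplied by 0.812, while fragment counts are given here unscaled. Intervals given with a fold are 95% Poisson intervals of the ChIP fragments and cover counting error only. Coordinates are those of GRCh37, as the sequence names in the lists have it. No sequence or gene annotation of that build was used, so the regions are named by position alone.

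The 2 lists that define the regions differed in length and depth. HepG2 anti-HOXA13 held 71590 intervals on these chromosomes, with a median of 7 fragments at the summit, and Huh7 anti-HOXA13 held 10404, with a median of 14. The labels state a depth of 50 M (1e6) reads for each sample. The expected pileup over most of the genome was 1.73 fragments in HepG2 and 2.60 in Huh7, the latter to be set against scaled ChIP fragments. The regions were chosen by the presence of called intervals, which the peak caller had selected on fold and p, so fold, p and q are given as a description, with nothing tested.

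Most of the 211 regions were weak in both lists, and a smaller set stood well above input, mainly in Huh7. A false discovery rate (q) of 0.05 was reached by 46 regions in HepG2 (21.8%, exact binomial interval 16.4 to 28.0%), where 9.99% of all intervals of the list did. In Huh7 it was reached by 71 regions (33.6%, 27.3 to 40.5%), where 9.3% of the list did. Only 22 regions reached it in both lists, 49 in Huh7 only, 24 in HepG2 only and 116 (55.0%, 48.0 to 61.8%) in neither. The 22 regions had a median of 3.90-fold in HepG2 and 4.96-fold in Huh7. The 116 had medians of 2.58-fold and 2.60-fold, with 7.5 fragments at the HepG2 summit and 15 at the Huh7 summit. These shares lie above the lists' own, but the rule used the same intervals, and nothing is read from the difference.

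Strength was unequal between the lines. The Huh7 fold was the higher of the pair at 120 of 211 regions. It was so at 15 of the 22 regions significant in both lists and at 55 of the 116 in neither. Classes by q in 1 list lean by definition, with each of the 49 in Huh7 only and 1 of the 24 in HepG2 only. A fold of at least 5 was reached by 28 regions in Huh7 (13.3%, 9.0 to 18.6%; 1.98% of the list) and by 3 in HepG2 (1.42%, 0.294 to 4.10%; 0.0978% of the list), and by 2 regions in both. A −log10 q of at least 5, the level used here for a strong peak, was reached by 38 regions in Huh7 (18.0%, 13.1 to 23.9%; 2.56% of the list) and by 5 in HepG2 (2.37%, 0.774 to 5.44%; 0.538% of the list). HepG2 values were coarse at this depth. At 77 regions the pileup expected from input at the HepG2 summit equalled the genome background. Of these, 24 had 6 ChIP fragments (2.57-fold), 23 had 7 (2.94-fold) and 14 had 8 (3.30-fold). In all, 114 regions rested on 8 HepG2 fragments or fewer. The lower bound of the fold exceeded 2 at 84 regions in Huh7, at 26 in HepG2 and at 17 in both. The log2 folds of the lists were weakly related across the 211 regions (Pearson r of 0.35, Spearman rho of 0.33), which share the calling thresholds and sequence content. Among the 163 regions without raised input, defined below, r was 0.31 and rho 0.27.

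**Figure D1:**
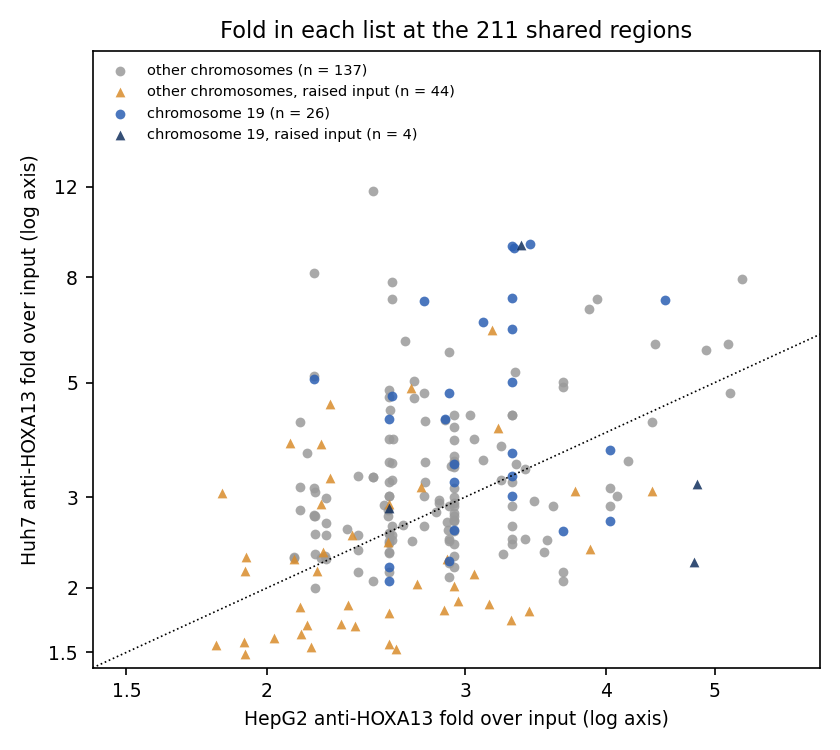
Each point is 1 of the 211 regions, with its fold over input in HepG2 anti-HOXA13 (x axis) and in Huh7 anti-HOXA13 (y axis), both on log axes; the dotted line marks equal folds. Points on chromosome 19 (blue) reach 9.29-fold in Huh7, the columns at 2.57-fold, 2.94-fold and 3.30-fold are HepG2 summits of 6, 7 and 8 fragments, and regions with raised input (triangles) gather at low folds.

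The 12 regions with the best mean rank of fold over the lists were the highest in both libraries together. The first was chr12:133779114-133781185, near the end of the long arm, at 5.29-fold (3.05 to 8.63) in HepG2 from 14 fragments and 7.94-fold (5.59 to 11.0) in Huh7 from 34. It held 2 HepG2 intervals inside 1 Huh7 interval of 2072 bp, the widest of all regions. It and chr1:40928627-40929351 were the only 2 regions strong in both lists. The chromosome 1 region stood at 5.16-fold (3.03 to 8.31) in HepG2 and 4.77-fold (3.35 to 6.60) in Huh7. It was the only one of the 12 with the higher fold in HepG2.

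Other high regions lay on chromosomes 2, 4, 9, 11 and 19. On chromosome 19, chr19:37037921-37038614 stood at 4.52-fold (2.56 to 7.5) in HepG2 and 7.22-fold (5.10 to 9.94) in Huh7. On chromosome 11, chr11:119955368-119956423 stood at 5.14-fold (2.91 to 8.52) in HepG2 and 5.93-fold (4.03 to 8.46) in Huh7. On chromosome 4, chr4:436292-437921, close to the tip of the short arm, stood at 4.91-fold (2.83 to 8.02) and 5.80-fold (4.08 to 8.02), in the same order. The lines' intervals overlapped at all 3, so the folds were not separable by counting error. On chromosome 9, chr9:115804910-115806059 stood at 4.43-fold (2.50 to 7.35) in HepG2 and 5.93-fold (4.03 to 8.46) in Huh7. On chromosome 2, chr2:6985529-6985779 stood at 3.93-fold and 7.27-fold and chr2:95815146-95815541 at 3.86-fold and 6.95-fold, HepG2 first. Of the 12 regions, 10 reached q of 0.05 in both lists, all 12 were strong in Huh7, and 5 lay on chromosome 19. Their nearest anti-HA interval of either line was at least 4306 bp away.

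The highest Huh7 folds were met by modest HepG2 folds. The Huh7 maximum among the regions was chr16:3458609-3459025 at 11.8-fold (8.84 to 15.4) from 51 fragments. In HepG2 the same region had 8 fragments and 2.48-fold (1.23 to 4.63), with a −log10 q of only 0.0621. The next 4 all lay on chromosome 19. At chr19:58708182-58708776 Huh7 had 9.29-fold (6.79 to 12.4) and HepG2 3.42-fold (2.01 to 5.51), with summits 7 bp apart. At chr19:44980643-44981768 Huh7 had 9.23-fold (7.19 to 11.7) and HepG2 3.36-fold (2.12 to 5.10). At chr19:7083031-7083813 the folds were 9.18 (6.74 to 12.2) in Huh7 and 3.30 (1.63 to 6.15) in HepG2. At chr19:12637347-12638686 they were 9.13 (6.93 to 11.8) and 3.31 (1.70 to 6.0), with only 44 bp of overlap between the intervals. These 5 were among 10 regions (4.74%, 2.30 to 8.54%) whose Huh7 interval lay wholly above the HepG2 interval. The other 5 were chr1:31931169-31931483, chr2:102682187-102682622, chr7:57187644-57188394, chr9:95746164-95746567 and chr19:37129674-37130248. No region had the HepG2 interval wholly above the Huh7 interval, for which 3 counts of 211 would be a share of 1.42% and the exact upper limit is 1.73%. HepG2 summits of 8 fragments or fewer, at 114 of the 211 regions, gave wide intervals with low lower bounds. A fold of at least 5 was also rarer in the whole HepG2 list (0.0978%) than in the whole Huh7 list (1.98%). Folds of different libraries also depend on how well each pull-down worked, and that was not tested.

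The highest HepG2 folds were lower. After the regions on chromosomes 12, 1, 11 and 4 came chr19:58772917-58774233 at 4.83-fold (2.78 to 7.88) in HepG2, which had 3.18-fold (2.24 to 4.40) in Huh7. It was also a region with raised input in Huh7, at 3.08 times the background. Besides the regions of chromosomes 1 and 12, the strong HepG2 regions were chr4:49111485-49111748 at 4.40-fold, chr5:49423089-49423275 at 3.06-fold and chr19:36778383-36780036 at 4.79-fold. In Huh7 these 3 stood at 3.09-fold, 2.12-fold and 2.25-fold. The chromosome 4 and 5 regions lay within 1 Mb of a stretch of at least 2.9 Mb without a peak in any list, and all 3 had raised input in at least 1 line.

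The regions significant in both lists outside the best-ranked 12 were of several kinds. Away from raised input, chr13:41722891-41723138 stood at 4.40-fold (2.38 to 7.59) in HepG2 and 4.20-fold (2.97 to 5.79) in Huh7, with summits 48 bp apart. At chr2:72613540-72613776 the folds were 4.19 (2.37 to 6.95) in HepG2 and 3.52 (2.34 to 5.12) in Huh7, and a Huh7 anti-HA interval lay 279 bp away. At chr3:128578430-128578795 they were 3.67 (1.88 to 6.63) and 4.90 (3.56 to 6.60), with summits 1 bp apart, and at chr9:998434-999049 they were 3.32 (2.04 to 5.14) and 5.25 (3.85 to 6.99). At these 4 regions the counting intervals of the lines overlapped. With raised input in both lines, chr11:43902150-43902535 had 2.69-fold (1.69 to 4.08) in HepG2 from 20 fragments and 4.89-fold (3.91 to 6.04) in Huh7 from 83. On chromosome 1, chr1:227842076-227843449 and chr1:209957795-209958177 had raised input in Huh7, at 3.08 times the background each, and stood at 3.21-fold and 3.76-fold in HepG2 and 4.08-fold and 3.09-fold in Huh7.

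Regions significant in 1 list had small folds in the other, which the definition of these classes by q largely fixes. The 49 significant in Huh7 only had medians of 2.70-fold in HepG2 and 4.43-fold in Huh7, from 8 and 30 fragments. Their median width was 404 bp, 14 lay on chromosome 19 and 9 had raised input. The 24 significant in HepG2 only had medians of 3.54-fold in HepG2 and 2.20-fold in Huh7, from 13.5 and 22.5 fragments. Their median width was 277 bp, 4 lay on chromosome 19, and 13 had raised input. Of the 116 significant in neither list, 8 lay on chromosome 19 and 19 had raised input, and their median width was 236 bp.

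The share of the Huh7 list that fell into the regions grew with fold. Of all Huh7 intervals, 2.03% (1.77 to 2.32%) lay in a region. The share was 1.31% (1.05 to 1.60%) for folds of 2 to 3, then 6.95% (4.46 to 10.2%) for folds of 4 to 5. It was 11.8% (7.52 to 17.3%) for folds of 5 to 8, and 6 of the 19 intervals above that (31.6%, 12.6 to 56.6%) lay in a region. Below 2-fold it was 3.42% (2.10 to 5.24%). In HepG2 the share was 0.302% (0.263 to 0.345%) for the whole list, 1.03% (0.563 to 1.72%) from 4- to 5-fold and 4.69% (0.977 to 13.1%) from 5- to 8-fold. None of the 6 HepG2 intervals at 8-fold or more lay in a region, for which 3 counts would be a share of 50% and the exact upper limit is 45.9%, and all 6 lay in merged regions with an anti-HA interval. Of the Huh7 intervals at 5-fold or more, 28 of 206 lay in a region and 12 lay in a merged region with an anti-HA interval. The latter is 5.8% (3.05 to 9.95%), where 3.67% (3.32 to 4.05%) of the whole Huh7 list did. In HepG2 these counts were 3 and 26 of 70, the latter 37.1% (25.9 to 49.5%), where 2.48% (2.37 to 2.60%) of the whole HepG2 list did.

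**Figure D2:**
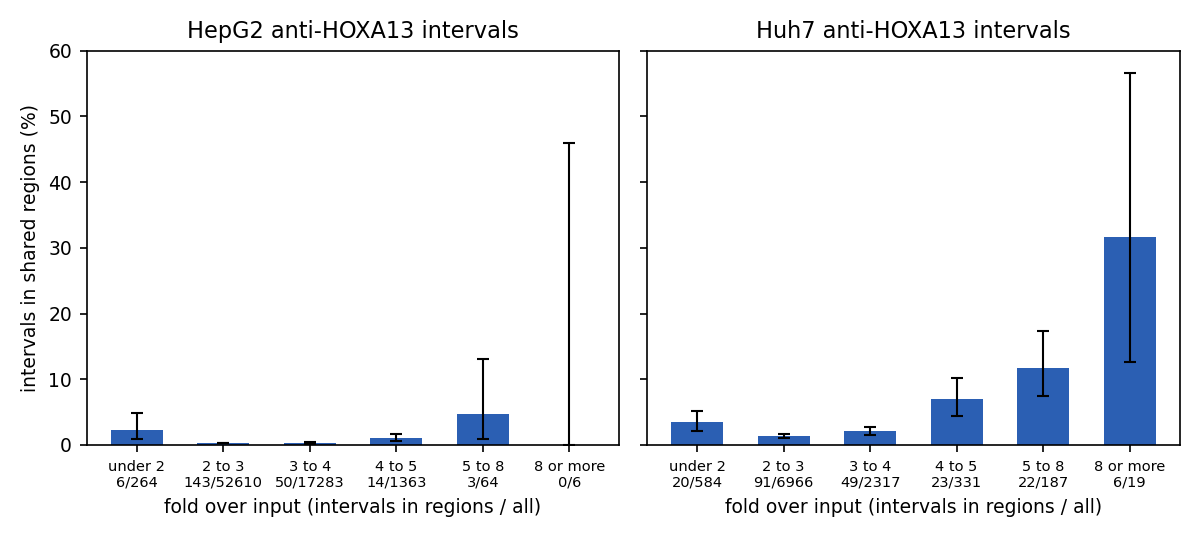
Bars give the share of HepG2 (left) and Huh7 (right) anti-HOXA13 intervals that lie in the 211 regions, by fold over input, with exact 95% binomial intervals; the counts stand under each bar. In Huh7 the share rises from 1.31% at 2- to 3-fold to 31.6% at 8-fold or more. In HepG2 it rises from 0.272% at 2- to 3-fold to 4.69% at 5- to 8-fold, with 0 of 6 intervals above that. Heights differ with the length of the lists, since the share is 2.03% of all 10404 Huh7 intervals and 0.302% of all 71590 HepG2 intervals. Interval width was not held equal between the bands.

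Chromosome 19 held more of the regions than any other chromosome. This chromosome is gene-dense and carries many clusters of zinc finger genes. It held 30 of the 211 regions (14.2%, 9.80 to 19.7%), while it held 1.75% of the HepG2 intervals and 5.94% of the Huh7 intervals. Among regions significant in Huh7, 18 of 71 (25.4%, 15.8 to 37.1%) lay there, against 12 of 140 (8.57%, 4.51 to 14.5%) of the others. The Huh7 list had the same lean without regard to HepG2, with 14.3% (12.1 to 16.6%) of its intervals at q of 0.05 on chromosome 19 and 5.09% (4.65 to 5.55%) of the rest. The HepG2 list leaned the same way at lower shares, with 2.56% (2.21 to 2.95%) and 1.66% (1.56 to 1.76%). Of the Huh7 intervals at q of 0.05, 18 of 138 on chromosome 19 (13%, 7.92 to 19.8%) and 53 of 830 elsewhere (6.39%, 4.82 to 8.27%) lay in a region. These intervals overlap narrowly.

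The chromosome 19 regions were also higher and wider. Their median fold was 3.30 in HepG2 and 3.97 in Huh7, against 2.70 and 2.89 for the 181 regions elsewhere, and their median width was 553 bp against 266 bp. Only 4 of the 30 had raised input. Chained at gaps under 1 Mb, 9 of the 30 lay between 36778383 and 38294301 and 8 between 56904867 and 58774233. In the first of these stretches the folds ran from 2.57 to 4.79 in HepG2 and from 2.25 to 7.22 in Huh7, and 6 regions reached q of 0.05 in Huh7. In the second they ran from 2.57 to 4.83 and from 2.57 to 9.29, and again 6 did. A further 3 regions lay between 22235142 and 23128688, with 1 significant in Huh7.

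The other chromosomes lay above, between and below the shares of the lists. Of the 22, 6 held a larger share of the regions than of either list (1, 4, 5, 9, 12 and 15), 8 a share between the lists and 8 a smaller share than of either. Chromosome 2 held 24 regions (11.4%, 7.43 to 16.5%), with 16.2% of the HepG2 and 9.76% of the Huh7 intervals. Chromosome 1 held 21 (9.95%, 6.27 to 14.8%), with 6.69% and 8.94%. Chromosome 20, where the HepG2 list is dense with 9.98% of its intervals, held 10 regions (4.74%, 2.30 to 8.54%) and 2.78% of the Huh7 intervals. Chromosome 16, with 7.41% of the HepG2 and 2.43% of the Huh7 intervals, held 7 regions (3.32%, 1.34 to 6.72%), of which 5 were significant in Huh7 only. Chromosome 3 held 11 (5.21%, 2.63 to 9.14%), of which 9 were significant in neither list, and chromosome 6 held 13 (6.16%, 3.32 to 10.3%), of which 11 were. Chromosome 10 held 1 region and chromosome 18 none, the latter of 1223 HepG2 and 163 Huh7 intervals, for which the limit of 3 counts is 1.42% of the regions and the exact upper limit 1.73%.

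**Figure D3:**
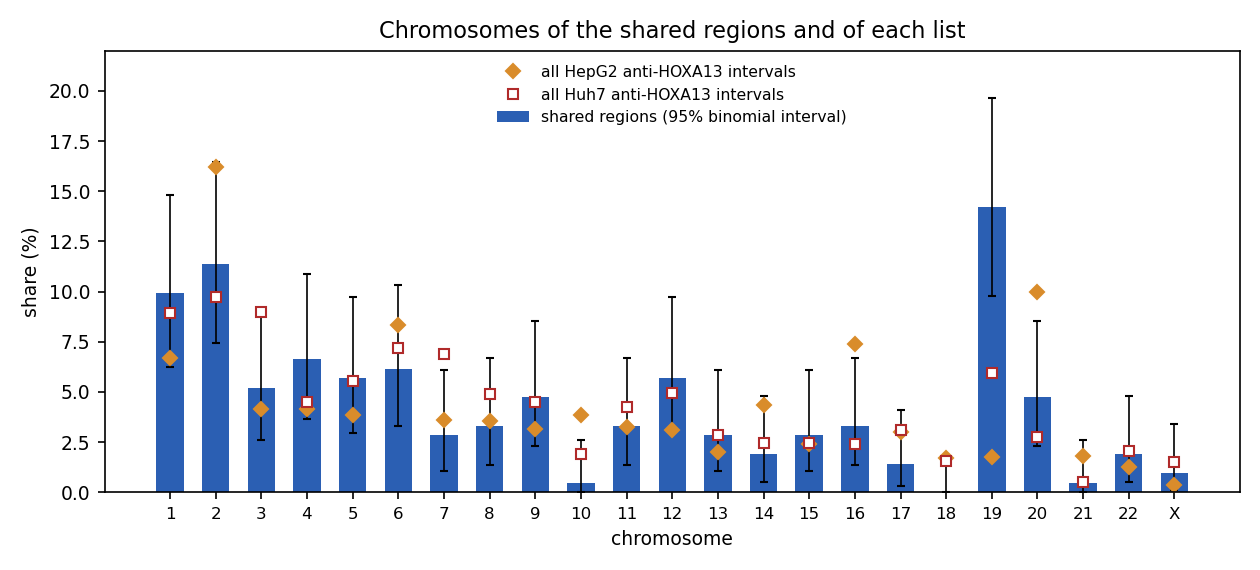
Bars give the share of the 211 regions on each chromosome with exact 95% binomial intervals; diamonds and open squares give the share of all HepG2 and all Huh7 anti-HOXA13 intervals. At chromosome 19 the bar stands at 14.2% over 1.75% and 5.94% of the lists, and at chromosome 20 it stands at 4.74% below the HepG2 share of 9.98%.

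Some regions lay on sequence that collected extra reads in input as well. Input was called raised where the expected pileup exceeded 3 times the genome background of the list. It was raised in HepG2 at 32 regions (15.2%, 10.6 to 20.7%), where 1.6% of the list was, and in Huh7 at 43 (20.4%, 15.2 to 26.4%), where 8.78% of the list was. In all, 48 regions (22.7%, 17.3 to 29.0%) had raised input, 27 of them in both lines, 5 in HepG2 only and 16 in Huh7 only. Their median fold was 2.57 in HepG2 and 2.20 in Huh7, against 2.9 and 3.07 for the other 163. Chromosome 8 is the clearest case, with raised input at 6 of its 7 regions. Of these, 4 lay between 86563436 and 86804863, with folds of 1.91 to 2.72 in HepG2 and 1.49 to 2.04 in Huh7. At chr8:86563436-86563652 the expected pileup was 14.6 times the background in HepG2 and 15.8 times in Huh7. Similar levels were found at chr2:90391278-90391507, with 14.3 and 15.0 times. Within 1 Mb of the 22 peak-free stretches of at least 2.9 Mb, which stand in for the gaps at centromeres, lay 12 regions, and 8 of these had raised input. The part of raised input in the sharing of these regions was not tested. Of the 22 regions significant in both lists, 7 had it.

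In width the lists were unlike, also as a whole, with a median interval of 130 bp in the HepG2 list and 158 bp in the Huh7 list. The shortest interval also differed, at 103 bp in the HepG2 list and 123 bp in the Huh7 list. Many HepG2 intervals in the regions lay near that floor, with a lower quartile of 109 bp. The regions had a median width of 275 bp, with quartiles of 216 and 396 bp, and the HepG2 intervals in them were shorter (median 147 bp) than the Huh7 intervals (212 bp). The Huh7 interval was the longer at 159 regions. Summits of the lists lay a median of 68 bp apart (quartiles 32 and 131 bp), and 136 regions (64.5%, 57.6 to 70.9%) had them within 100 bp. The 12 regions of 1 kb or more all but once had the longer interval in Huh7 and a q of 0.05 there. The exception was chr19:36778383-36780036, where 1654 bp of HepG2 interval met 125 bp in Huh7. Summits more than 500 bp apart were found at 5 regions, the farthest being 1049 bp at chr19:12637347-12638686 and 953 bp at chr16:68597460-68598688. Among the 12 regions best by rank, 7 had summits over 100 bp apart, measured between the intervals of highest fold. In 1 of these 7, chr4:436292-437921, the other HepG2 interval (4.47-fold) had its summit 44 bp from that of Huh7.

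**Figure D4:**
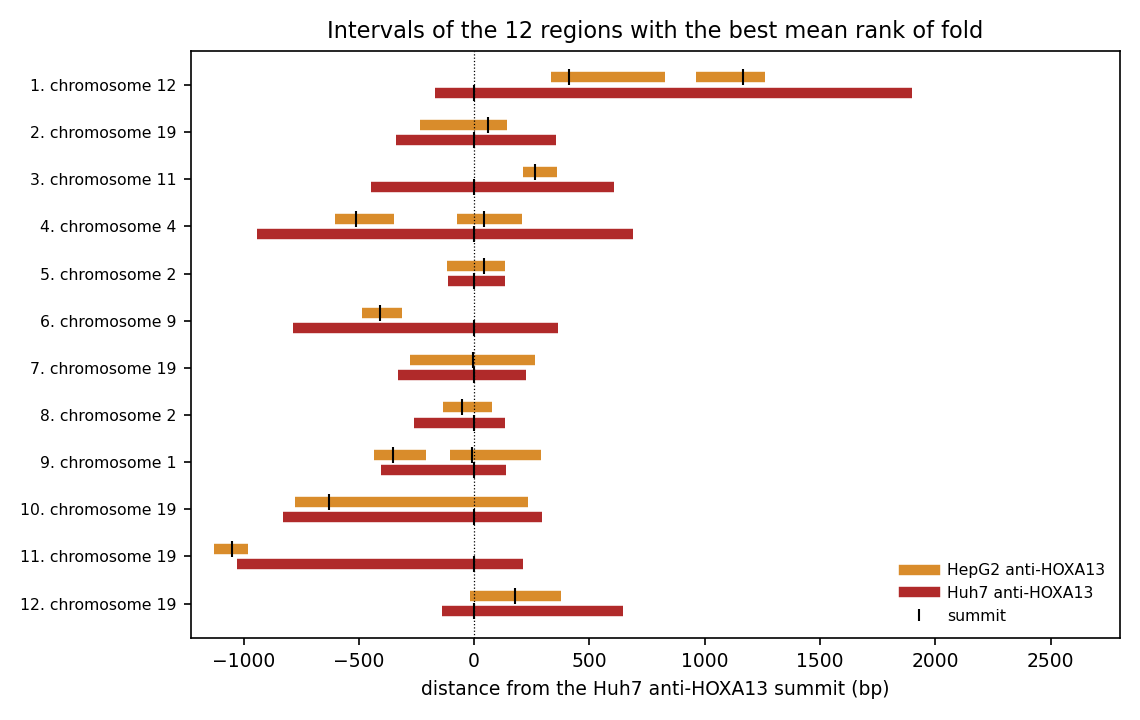
Bars show the intervals of the 12 regions with the best mean rank of fold, placed by distance in bp from the highest Huh7 summit, with HepG2 above and Huh7 below and ticks at summits. In 6 of the 12 the region is at least 1 kb wide, and in 7 the HepG2 summit with the highest fold lies more than 100 bp from the Huh7 summit.

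A minority of the regions lay close to each other. Chained at gaps under 100 kb, 30 of 211 (14.2%, 9.80 to 19.7%) fell into 13 groups of 2 or 3. The 4 groups of 3 were unlike each other. On chromosome 12 the group from 133634125 to 133781185 ran up to 5.29-fold in HepG2 and 7.94-fold in Huh7, with 2 regions significant in both lists. Besides the first-ranked region it held chr12:133634125-133635325, at 3.67-fold and 5.01-fold, and chr12:133732896-133733162, at 3.30-fold and 3.21-fold. On chromosome 19 the group from 58639281 to 58774233 had all 3 regions significant in Huh7 and 2 in HepG2. Its first region, chr19:58639281-58640196, had 7.31-fold (5.31 to 9.84) in Huh7 and 3.30-fold (1.63 to 6.15) in HepG2. The chromosome 19 group from 56904867 to 56952905 was significant in Huh7 at all 3 regions and in HepG2 at none. The group on chromosome 8, from 86727673 to 86804863, had raised input at all 3.

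The regions held no anti-HA interval by rule, and most had none within 10 kb. The gap to the nearest HepG2 anti-HA interval had a median of 24695 bp and that to the nearest Huh7 anti-HA interval a median of 31047 bp. An anti-HA interval of either line lay within 1 kb of 18 regions and within 10 kb of 88. The nearest were chr2:157156468-157156654, 155 bp from a HepG2 anti-HA interval, chr14:30322960-30323357, 158 bp from a Huh7 one, and chr1:2592603-2593102, 272 bp from a HepG2 one. Medians for regions called by the HOXA13 antibody in 1 line alone lay on both sides of those of the 211. For HepG2 alone these were 23916 bp to HepG2 anti-HA and 63053 bp to Huh7 anti-HA, and for Huh7 alone 32023 and 23033 bp. The share within 1 kb of HepG2 anti-HA was 6.64% (3.68 to 10.9%) of the shared regions, 4.54% (4.39 to 4.70%) of the HepG2-only and 3.20% (2.86 to 3.57%) of the Huh7-only regions. Within 1 kb of Huh7 anti-HA it was 2.37% (0.774 to 5.44%), 1.39% (1.31 to 1.48%) and 3.07% (2.74 to 3.43%), in the same order. Within 10 kb of HepG2 anti-HA it was 26.5% (20.7 to 33.0%), 29.4% (29.05 to 29.7%) and 21.4% (20.6 to 22.2%). Within 10 kb of Huh7 anti-HA it was 27.0% (21.15 to 33.5%), 13.3% (13.1 to 13.6%) and 26.1% (25.25 to 27.0%).

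**Figure D5:**
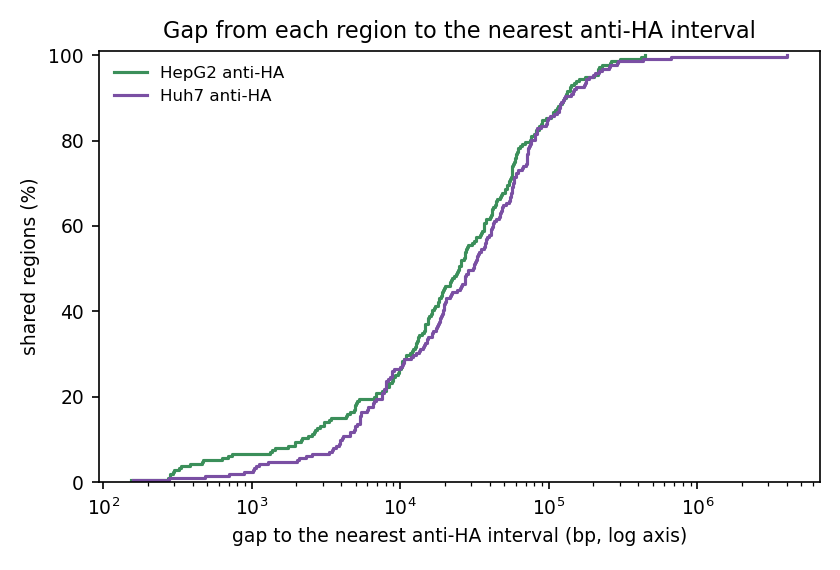
Lines give the share of the 211 regions (y axis, %) whose gap to the nearest anti-HA interval is at most the distance on the x axis (bp, log axis), for HepG2 and Huh7 anti-HA. The medians are 24695 and 31047 bp, and 26.5% and 27.0% of the regions lie within 10 kb. These shares are 29.4% and 13.3% for regions of HepG2 anti-HOXA13 alone and 21.4% and 26.1% for those of Huh7 anti-HOXA13 alone.

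Beside the regions most like them, the 211 had a higher median fold in Huh7 and a median near that of the list in HepG2. In the HepG2 list the median fold was 2.77 in the 211, 2.84 in the 69599 regions of that list alone and 2.9 in the 1309 shared with HepG2 anti-HA only. The highest HepG2 fold was 5.29 in the 211, 7.52 in HepG2 alone and 22.9 in those shared with anti-HA. In the Huh7 list the median was 2.92 in the 211, 2.69 in the 9811 regions of that list alone and 2.60 in the 156 shared with Huh7 anti-HA only. At least 5-fold in Huh7 were 28 of the 211, 166 of the 9811 and 0 of the 156. Of the 160 regions of Huh7 anti-HOXA13 and HepG2 anti-HA only, 6 were. The highest Huh7 fold was 11.8 in the 211 and 13.7 in Huh7 alone. Chromosome 19 held 14.2% of the 211, 5.81% (5.36 to 6.29%) of Huh7 alone, 1.65% (1.55 to 1.75%) of HepG2 alone, 4.74% (3.65 to 6.03%) of the HepG2 regions of both antibodies and 3.68% (2.94 to 4.54%) of the 2255 regions of both anti-HA lists only. Raised input in HepG2 lay under 15.2% of the 211, 26.1% (23.7 to 28.5%) of the HepG2 regions of both antibodies and 0.842% (0.775 to 0.913%) of HepG2 alone. In Huh7 it lay under 20.4% of the 211, 12.2% (7.49 to 18.4%) of the Huh7 regions of both antibodies and 7.88% (7.35 to 8.43%) of Huh7 alone. Other parts had more. It was 28.75% (21.9 to 36.4%) in the 160 regions of Huh7 anti-HOXA13 and HepG2 anti-HA only. In the 2255 regions of both anti-HA lists it was 48.5% (46.4 to 50.6%) for HepG2 anti-HA and 25.8% (24.0 to 27.7%) for Huh7 anti-HA. Summit distances were alike in size, with medians of 68 bp here, 59 bp in the HepG2 regions of both antibodies, 66 bp in those of Huh7 and 69 bp in the regions of both anti-HA lists. No test was made of these differences, since the rule used the same lists.

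The rule's edge is an overlap of 1 bp, and weak regions lay on both sides of it. The members with the least overlap were chr3:9005061-9005333 with 3 bp (2.60-fold in HepG2, 1.53-fold in Huh7), chr22:21434951-21435244 with 3 bp (2.21-fold and 2.54-fold) and chr2:169433557-169433863 with 4 bp (2.89-fold and 2.69-fold). Just outside lay 3 pairs of intervals. On chromosome 7 a HepG2 interval from 48456056 to 48456185 (2.57-fold) touched a Huh7 interval from 48455933 to 48456055 (2.98-fold) without overlap. On chromosome 2 the gap was 1 bp between 132403047 to 132403221 (2.66-fold) and 132402812 to 132403045 (2.28-fold). On chromosome 20 it was 3 bp between 4636945 to 4637146 (2.53-fold) and 4636804 to 4636941 (2.94-fold). In all, 60 Huh7 intervals of no shared region lay within 100 bp of a HepG2 interval of none.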

How the data were processed

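The 4 peak lists were deposited by the authors, and per the file names each compares 1 ChIP library with input from its own cells. The submitters' processing notes name BWA, MACS2 and GRCh38, without versions or settings; the lists' own sequence names (a decoy and GL000 contigs) are those of GRCh37 with decoy. The deposited fold is a ratio of ChIP to expected pileup, significance is deposited as −log10 p and −log10 q, and the deposited score is a multiple of −log10 p. The lowest −log10 p was 2.00. The deposited summit column is another whole number, an offset in bp.

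From fold and p, ChIP fragments at the summit (a whole number) and the pileup expected there were solved with MACS2's published formulas, for at least 99.98% of intervals per list (ChIP scaled by 0.812 in Huh7 anti-HOXA13). Where a region held 2 intervals of a list, fold, p, fragments and summit were those of the interval with the highest fold. For −log10 q and raised input the higher value of the intervals was taken, and their lengths were summed. Shares carry exact 95% binomial intervals. The members and lists of results were chosen with earlier results of these data known. Regions were named by the best mean rank of fold (12), the highest fold (5 per list), strength in both lists, the 4 largest groups, the edge of the overlap (3 each side) and the nearest anti-HA interval (3). Regions singled out elsewhere, such as those significant in HepG2, were picked after their values were seen. Computing was in Python 3.11.15 (scipy 1.17.1, pandas 2.3.3, numpy 2.4.6; plots with matplotlib 3.10.9), and the merging and solving were tested on simulated data. Other overlaps, thresholds, gaps and input limits were tried.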

Additional observations from a re-analysis of the deposited data

Results flagged for a closer look

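Regions of the same kind were also found on the decoy sequence, which the comparisons above did not use. The decoy collects human sequence that is missing from the chromosomes. It held 39 regions with an interval of both anti-HOXA13 lists and no anti-HA interval, among 9857 HepG2 and 256 Huh7 intervals. Their median fold was 3.21 in HepG2 and 2.15 in Huh7, with maxima of 5.07 and 4.34. Raised input lay under 26 of the 39, and 6 reached q of 0.05 in both lists.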

How the results depend on the processing

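No paired analysis was possible because each condition had 1 library, and no library could be left out for the same reason. The 211 regions became 136 when summits had to lie within 100 bp and 111 when only anti-HOXA13 intervals with −log10 p of at least 3 were used. With that stricter p the median fold was 2.94 in HepG2 (2.77 in the full set) and 3.44 in Huh7 (2.92), the share on chromosome 19 was 20.7% (14.2%), the share of Huh7 intervals in the regions was 1.73% (2.03%), and 19.8% of regions (10.4%) reached q of 0.05 in both lists. Without raised input the shares of the HepG2 and Huh7 lists in the regions were 0.237% and 1.72%. Input was raised at 37.4% of regions with a limit of 2 times the background and at 10.9% with 5 times. Regions near another made up 8.53% at gaps under 50 kb, 24.6% at 200 kb and 39.8% at 1 Mb, the last chosen after seeing the data. The median gap to the nearest anti-HA interval of either line was 13542 bp, and 45877 bp when only anti-HA intervals at q of 0.05 counted. The 12 best-ranked regions all remained at the stricter p, and 5 remained with summits within 100 bp. Leaving out chromosome 19, or the 12 regions near peak-free stretches, was also added after seeing the data; the median folds stayed within the 95% order-statistic intervals of the full set (2.60 to 2.9 in HepG2, 2.76 to 3.12 in Huh7), and the share significant in both lists, at 9.95% and 9.55%, within its exact interval. The median summit distance was not recomputed under these. HepG2 depth, with a median of 8 fragments at a summit, limits every fold given for that line.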

Other observations

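On sequences outside chromosomes 1 to 22 and X, the unplaced contigs held 2 regions of both anti-HOXA13 lists without an anti-HA interval, with median folds of 2.94 in HepG2 and 3.77 in Huh7 and no raised input. Chromosome Y held none among its 10 Huh7 and 409 HepG2 intervals, while 7 merged regions there held both anti-HOXA13 lists together with an anti-HA interval. On the unplaced contigs 14 merged regions did.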
